A study of Mus musculus with 9 samples.

Results

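The genes described here are mt-Cytb, mt-Co1, mt-Co2, mt-Co3 and mt-Atp6, which mitochondrial DNA encodes as subunits of complexes III, IV and V of the respiratory chain. They were taken by gene name from a pair of deposited count tables, and all 5 were found among the 237 genes of the table for YTHDF1 and YTHDF2 overexpression and among the 194 genes of the table for YTHDF2 RNA immunoprecipitation. The tissue was the medial prefrontal cortex (labelled mPFC), the strain was C57BL/6, and there were 3 libraries in each of 3 groups. The first group was the insoluble fraction of mice aged 22 months, the second overexpression of YTHDF1 and YTHDF2 together (OE), and the third RNA recovered with YTHDF2 by immunoprecipitation (RIP). No group is titled as an input or control immunoprecipitation, and the titles name a fraction only for the mice aged 22 months. In each comparison overexpression or immunoprecipitation therefore cannot be told apart from any difference in fraction or age. The labels name no promoter, vector or cell type for the overexpression, give no age for the OE and RIP animals and do not say whether the libraries came from separate animals, so p-values measure the spread between these libraries, which may be technical.

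Cytochrome b, the product of mt-Cytb, is the only subunit of complex III that mitochondrial DNA encodes, and it carries the quinone-binding sites. The products of mt-Co1, mt-Co2 and mt-Co3 form the core of complex IV, cytochrome c oxidase, and that of mt-Atp6 lies in the proton channel of complex V, the ATP synthase. These RNAs are cut from long transcripts of a whole mitochondrial strand, mostly at tRNAs, so their levels depend on processing and stability as well as on transcription. YTHDF2 is a cytoplasmic reader of m6A, a methylation of adenosine in RNA, and is known for directing its targets to decay.

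All 5 genes lie on the plus strand of the mitochondrial chromosome in GENCODE release M21 (GRCm38, the build that the submitters' processing notes call mm10) and are annotated as protein-coding. Mt-Co1 (ENSMUSG00000064351) spans chrM:5328-6872, mt-Co2 (ENSMUSG00000064354) chrM:7013-7696 and mt-Atp6 (ENSMUSG00000064357) chrM:7927-8607. Mt-Co3 (ENSMUSG00000064358) follows at chrM:8607-9390 and shares 1 base with mt-Atp6, with which it has no tRNA between, while mt-Atp6 also overlaps mt-Atp8 by 43 bases. Mt-Cytb (ENSMUSG00000064370) spans chrM:14145-15288.

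Nuclear DNA holds copies of stretches of mitochondrial DNA, and for 4 of the 5 genes such a copy is annotated as an unprocessed pseudogene with its own row in at least 1 of the tables. Gm28661 (chr1:24614885-24615565) holds the first 681 of the 684 bases of mt-Co2, Gm28437 (chr1:24613189-24613971) the first 783 of the 784 bases of mt-Co3, and Gm10925 (chr1:24613974-24614651) the first 678 of the 681 bases of mt-Atp6. These copies, all on the minus strand of chromosome 1, have 0 differences from the mitochondrial genes over those bases. Gm13340 (chr2:22588103-22589647, minus strand) matches mt-Co1 over its whole 1545 bases with 37 differences. The following stretches show bases 1 to 90 of each identical pair, read 5′ to 3′ along the gene and taken from the GENCODE transcripts, because the counts of these genes are read against those of copies with the same letters.

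mt-Co2 (chrM:7013-7102, plus): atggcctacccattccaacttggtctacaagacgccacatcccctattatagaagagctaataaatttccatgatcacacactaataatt
Gm28661 (chr1:24615476-24615565, minus): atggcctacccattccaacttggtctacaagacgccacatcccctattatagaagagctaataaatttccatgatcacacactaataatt
mt-Co3 (chrM:8607-8696, plus): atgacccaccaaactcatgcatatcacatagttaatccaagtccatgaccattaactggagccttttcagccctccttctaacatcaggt
Gm28437 (chr1:24613882-24613971, minus): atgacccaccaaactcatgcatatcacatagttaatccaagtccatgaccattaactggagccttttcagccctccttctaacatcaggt
mt-Atp6 (chrM:7927-8016, plus): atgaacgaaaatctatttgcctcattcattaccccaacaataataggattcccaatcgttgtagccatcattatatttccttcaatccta
Gm10925 (chr1:24614562-24614651, minus): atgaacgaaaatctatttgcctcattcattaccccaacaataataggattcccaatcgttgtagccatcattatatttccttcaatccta

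For mt-Co1 and Gm13340 the stretch from base 664 to base 753 of the gene, placed around the closest run of differences, holds 4 of the 37, shown in capitals. Counted from 1 at the first base of mt-Co1, with the base of mt-Co1 first, they are G696A, T699C, G717A and C720T.

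mt-Co1 (chrM:5991-6080, plus): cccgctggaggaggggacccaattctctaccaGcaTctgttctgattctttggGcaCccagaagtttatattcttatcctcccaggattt
Gm13340 (chr2:22588895-22588984, minus): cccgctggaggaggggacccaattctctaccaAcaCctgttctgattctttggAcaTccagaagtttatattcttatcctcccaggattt

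A second copy of part of mt-Co1, Gm29216 on chromosome 1, matches its last 483 bases with 1 difference, A1066T. Mt-Cytb had no such copy among the annotated transcripts, and its first 90 bases are shown as those of the gene with no annotated copy. Only annotated transcripts were searched, and copies elsewhere in the nuclear genome were not looked for.

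mt-Cytb (chrM:14145-14234, plus): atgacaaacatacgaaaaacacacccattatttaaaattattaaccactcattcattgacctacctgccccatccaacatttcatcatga

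Over all 50-base words of each gene, 100% of those of mt-Cytb and 48.9% of those of mt-Co1 occurred in no annotated transcript outside the mitochondrial chromosome. The share was 0.475% for mt-Atp6, 0.136% for mt-Co3 and 0% for mt-Co2. Counts of mt-Co2, mt-Co3 and mt-Atp6, and in part of mt-Co1, are therefore uncertain, since how reads with several matches were counted is not given in the sources used here.

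The listed genes summed to between 66812 and 99369 counts per library in the OE table and to between 61610 and 83620 in the RIP table, and these are totals over selected genes, not sequencing depths. The 15 mitochondrially encoded genes of the OE table took 22.4% to 22.8% of the listed counts in the insoluble libraries and 25.4% to 25.8% in OE. Of these, 14 were also listed for RIP, where they took 24.3% to 24.7% in the insoluble libraries and 5.89% to 6.08% in RIP. A single tRNA gene, mt-Tp, made up much of this. It took 16.16% to 16.43% (insoluble) and 18.27% to 18.35% (OE) in the OE table. In the RIP table it took 17.53% to 17.8% (insoluble) and 2.958% to 3.118% (RIP). The 5 members took 2.005% to 2.176% and 0.9962% to 1.126% there. None of the 40 fixed markers of neurons, astrocytes, oligodendrocytes and microglia was found in the tables as analysed here, and the tissue label could not be checked by them. Ythdf1 and Ythdf2 were not found there either, which leaves the OE and RIP labels unchecked. The 5 genes together held 2007 counts at most (OE replicate 1) and 833 at least (RIP replicate 2).

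**Figure D1:**
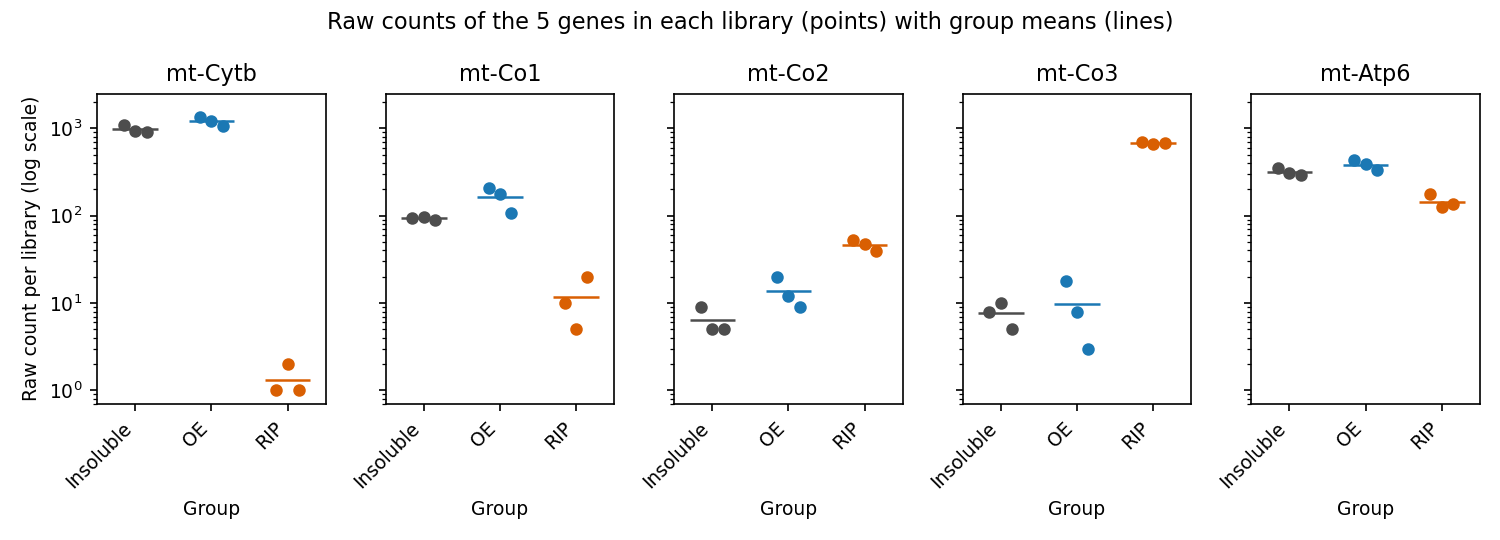
Raw counts of each of the 5 genes (log scale) in the 3 insoluble, 3 OE and 3 RIP libraries; points are libraries, in replicate order, and lines are group means. Insoluble and OE means lie near each other on this scale, whereas RIP counts of mt-Cytb fall to 1 or 2 and those of mt-Co3 reach 654 to 696.

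The first question was how these RNAs differed between OE and the insoluble fraction. Of the members tested, only mt-Co1 was called, being 1.47-fold higher in OE. Mt-Cytb and mt-Atp6 differed by 1.06-fold and 1.03-fold and did not pass the test. Mt-Co2 and mt-Co3 were too low to pass the filter on low counts and were not tested. By their means they were 1.82-fold and 1.03-fold higher in OE. In RNA from bulk tissue, fewer cells of a type and less RNA per cell cannot be told apart. Thus 1 of the 3 members tested was called (Benjamini-Hochberg adjusted p under 0.05 in the quasi-likelihood test of edgeR), beside 39.5% of the 195 genes tested in the table (21% called higher). The number of members called is therefore near the background.

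Mt-Cytb, the complex III subunit, held 1096, 929 and 895 counts in insoluble replicates 1 to 3 and 1333, 1221 and 1067 in OE replicates 1 to 3. Scaled by TMM, which adjusts library totals for a few genes that differ strongly, these became 1057 ± 54.4 and 1118 ± 2.59 normalised counts (SD, n = 3 each). The scaled groups did not overlap, but the nearest libraries stood at 1109 and 1115. The log2 fold change was 0.08 ± 0.05 (SE; edgeR adjusted p = 0.212).

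Mt-Co1, the catalytic subunit of complex IV, held 93, 97 and 90 counts in insoluble replicates 1 to 3. The OE libraries held 206, 178 and 108. OE replicate 3 was far lower than the other OE libraries but still above every insoluble library, also after scaling (113 against at most 107 normalised counts). The means were 102 ± 6.74 and 149.7 ± 32.3 normalised counts (SD, n = 3 each), and the log2 fold change was 0.58 ± 0.13 (SE; edgeR adjusted p = 0.000104). Leaving out OE replicate 3 gave 0.73 (adjusted p = 2.2e-07) and leaving out OE replicate 1 gave 0.46 (adjusted p = 0.0306).

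Mt-Co2, the subunit that takes electrons from cytochrome c, held 9, 5 and 5 counts in the insoluble libraries, against 20, 12 and 9 in OE. Without the filter its log2 fold change was 0.86 (edgeR adjusted p = 0.153), so a difference was not detectable at this depth. Mt-Co3, the core subunit without a metal centre, held 8, 10 and 5 counts in the insoluble libraries, against 18, 8 and 3 in OE. The groups overlapped, with the highest and the lowest of the 6 libraries both in OE, and the log2 fold change without the filter was 0.09 (edgeR adjusted p = 0.91).

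Mt-Atp6 held 355, 308 and 295 counts in the insoluble libraries, against 430, 391 and 334 in OE, or 347 ± 14.0 and 356 ± 6.38 normalised counts (SD, n = 3 each). The groups overlapped after scaling, and the log2 fold change was 0.04 ± 0.08 (SE; edgeR adjusted p = 0.711).

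The counts of the nuclear copies bear on these values. Gm28437, the copy of mt-Co3, held 142, 130 and 116 counts in the insoluble libraries, far more than mt-Co3 itself, and 113, 126 and 91 in OE. Summed with its copy, mt-Co3 had a log2 fold change of -0.43 ± 0.12 (SE; edgeR adjusted p = 0.00251), whereas the gene alone had no detectable direction. Mt-Co3 held only 4.13% to 7.14% of the summed counts in the insoluble libraries and 3.19% to 13.7% in OE. The sum thus mostly follows Gm28437, which alone had a log2 fold change of -0.46 ± 0.13 (SE; edgeR adjusted p = 0.0015). Gm28661, the copy of mt-Co2, held 16, 14 and 17 counts in the insoluble libraries, against 18, 13 and 14 in OE, and the sum of the pair had a log2 fold change of 0.15 ± 0.28 (SE; edgeR adjusted p = 0.689).

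Gm13340, the copy of mt-Co1, held 96, 87 and 92 counts in the insoluble libraries, against 132, 139 and 100 in OE. The sum with mt-Co1 kept the direction and the call of the gene alone, at 0.40 ± 0.10 (SE; edgeR adjusted p = 0.000335). Gm10925, the copy of mt-Atp6, held at most 2 counts in any library of the OE table and left the value of mt-Atp6 at 0.04. These sums were chosen after seeing the data, and 2 of the 5 members were called with them, beside 39.7% of 194 genes. The call of mt-Co3 among these rests mostly on the counts of its copy.

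The second question was how RNA recovered with YTHDF2 differed from the insoluble fraction, which is not labelled as its input. Here the 5 genes went apart: mt-Co3 was 66.8-fold and mt-Co2 5.53-fold higher in RIP, whereas mt-Cytb, mt-Co1 and mt-Atp6 were 969.5-fold, 10.7-fold and 2.93-fold lower. All 5 passed the filter, and edgeR called 2 of them higher and 3 lower. Calls were the rule in this table: 85.3% of the 190 genes tested were called (40.5% higher and 44.7% lower), so the number of members called is near the background. Mt-Co2 and mt-Co3 passed the filter through their RIP counts.

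A limit on the RIP table applies to every value from it. Across its 194 genes, the fold change in the authors' deposited table did not follow the ratio of RIP to insoluble counts of the same row (Spearman rho 0.1, against -0.997 across the 237 genes of the OE table, where the deposited ratio is insoluble over OE). Genes are not independent replicates, and whether each RIP count stands beside its own gene name was not tested further. In the authors' deposited table mt-Co3 has a fold change of 0.99 (p = 0.887, read as unadjusted), mt-Co1 one of 0.937 (p = 0.895) and mt-Atp6 one of 0.927 (p = 0.573). The authors' deposited table gives mt-Cytb 0.00258 (p = 0.396) and mt-Co2 0.000105 (p = 0.116). The direction of this column is not stated. The count ratio of RIP to insoluble was 0.00104 for mt-Cytb and 5.53 for mt-Co2, so these genes, both listed far below 1, went in opposite directions by their counts, and under either reading the listed value of one of them goes against its counts. Mt-Co3 is listed near 1 beside counts that differ by a large factor.

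Mt-Cytb held 1, 2 and 1 counts in RIP replicates 1 to 3, against 1096, 929 and 895 in the insoluble fraction. Every RIP library was thus at the edge of detection while no insoluble library held fewer than 895 counts. With summed counts of 4 and 2920, the RIP level was 969.5-fold lower, with a 95% interval of 378-fold to 3561-fold (exact binomial, counting error only, since reads that carry no molecular identifier need not come from separate molecules). The edgeR adjusted p was 1.6e-10. Of the 190 genes tested, 1, Dnah6, had a lower fitted log2 fold change than mt-Cytb.

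Mt-Co1 held 10, 5 and 20 counts in RIP, each below the lowest insoluble count of 90. RIP replicates 2 and 3 were the lowest and the highest, so the RIP mean of 10.2 ± 6.71 normalised counts carried a wide spread beside 109 ± 7.31 in the insoluble fraction (SD, n = 3 each). The log2 fold change was -3.40 ± 0.32 (SE; edgeR adjusted p = 1.25e-05). Leaving out RIP replicate 3 gave -4.02 and leaving out RIP replicate 2 gave -3.03, and the call was kept in both fits.

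Mt-Co2 held 52, 47 and 39 counts in RIP and at most 9 in the insoluble fraction, so the groups did not overlap. Normalised, these were 40.3 ± 5.39 and 7.29 ± 2.14 (SD, n = 3 each), a log2 fold change of 2.43 ± 0.24 (SE; edgeR adjusted p = 1.78e-05). Mt-Co2 passed the filter through its RIP counts, so only a higher call was open to it. Its nuclear copy moved the other way. Gm28661 held 8, 2 and 2 counts in RIP, and its log2 fold change was -2.34 ± 0.42 (SE; edgeR adjusted p = 0.000769). The sum of the pair, 25, 19 and 22 counts in the insoluble libraries, against 60, 49 and 41 in RIP, had a log2 fold change of 0.76 ± 0.19 (SE; edgeR adjusted p = 0.00494), so the size of the change of mt-Co2 depends on whether the copy is counted with it.

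Mt-Co3 held 696, 654 and 676 counts in RIP and between 5 and 10 in the insoluble libraries. The RIP libraries were alike, at 592 ± 7.71 normalised counts against 8.85 ± 2.62 (SD, n = 3 each). The log2 fold change of 6.03 ± 0.15 (SE; edgeR adjusted p = 4.64e-09) was the third highest of the 190 genes tested, after Adamts16 and Foxl2. Mt-Co3 passed the filter through its RIP counts, so only a higher call was open to it and the rank is descriptive. Gm28437 held 112, 143 and 147 counts in RIP, close to its insoluble counts, with a log2 fold change of -0.35 ± 0.14 (SE; edgeR adjusted p = 0.0452). The pair together rose from 150, 140 and 121 to 808, 797 and 823 counts, a log2 fold change of 2.15 ± 0.07 (SE; edgeR adjusted p = 1.35e-08), far smaller than that of the gene alone.

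Mt-Atp6, which adjoins mt-Co3 and shares 1 base with it, held 175, 125 and 135 counts in RIP. All lay below the lowest insoluble count of 295, and the means were 127 ± 20.7 and 372 ± 14.2 normalised counts (SD, n = 3 each). The log2 fold change was -1.55 ± 0.13 (SE; edgeR adjusted p = 5.26e-06). The neighbouring genes mt-Atp6 and mt-Co3 thus went in opposite directions in RIP. Its copy Gm10925 has no row among the genes of the RIP table analysed here, so no sum was made.

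For mt-Co1 the nuclear copy fell as well. Gm13340 held 23, 39 and 34 counts in RIP, and its log2 fold change was -1.92 ± 0.20 (SE; edgeR adjusted p = 2.44e-05). The sum with mt-Co1 had one of -2.50 ± 0.19 (SE; edgeR adjusted p = 3.47e-06). With the copies summed all 5 members were called, in the same directions as alone, beside 85% of 187 genes.

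**Figure D2:**
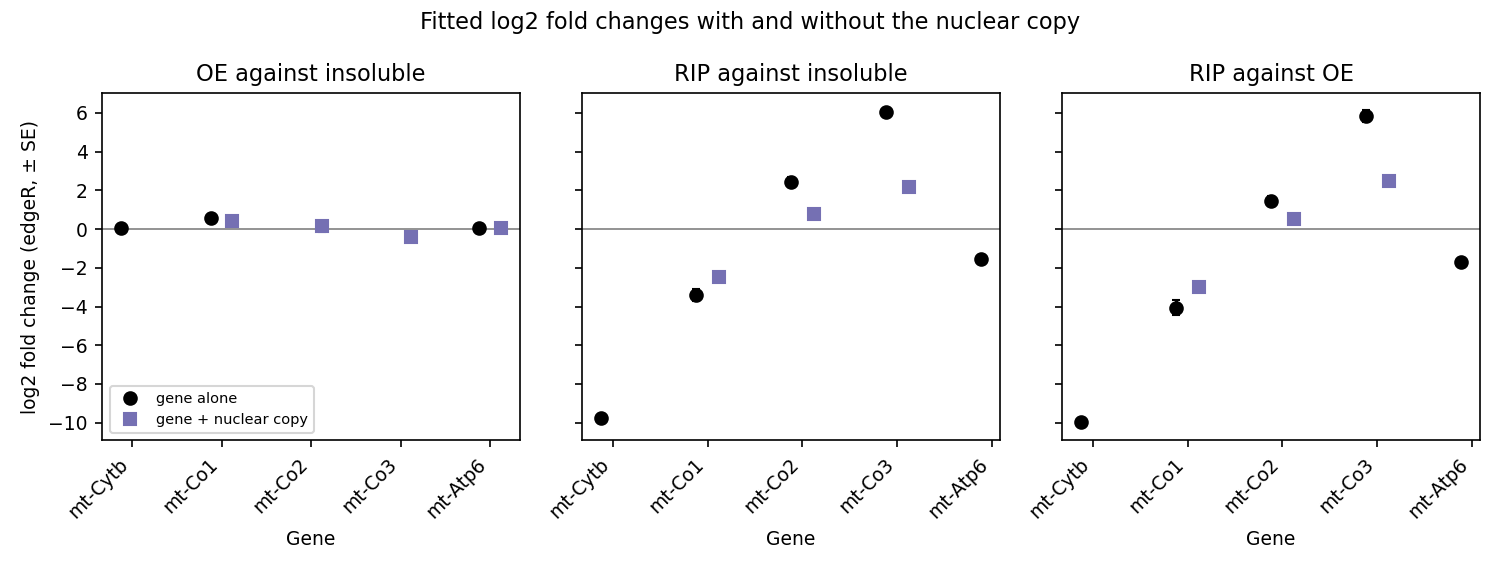
Log2 fold change (± SE, edgeR) of the 5 genes alone (circles) and summed with the nuclear copy where the table lists it (squares), for OE against insoluble, RIP against insoluble and RIP against OE. Mt-Co2 and mt-Co3 alone have no circle in the first panel because they did not pass the filter; the fitted value of mt-Cytb in RIP rests on 1 or 2 counts per library. In RIP against insoluble the squares of mt-Co2 (0.76) and mt-Co3 (2.15) lie far below their circles (2.43 and 6.03).

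The division of counts between gene and copy differed between the groups. Of the counts of mt-Co3 and Gm28437, 4.13% to 7.14% lay with mt-Co3 in the insoluble libraries, 3.19% to 13.7% in OE and 82.1% to 86.1% in RIP. Of those of mt-Co2 and Gm28661, 22.7% to 36% lay with mt-Co2 in the insoluble libraries, 39.1% to 52.6% in OE and 86.7% to 95.9% in RIP. For both of these identical pairs the share with the mitochondrial gene was higher in every RIP library than in any other. The third identical pair, mt-Atp6 and Gm10925, had 99.3% to 100% with mt-Atp6 in the insoluble and OE libraries and no row for the copy in the RIP table analysed here. The pair of mt-Co1 and Gm13340, whose letters differ, went the other way, with 49.2% to 52.7% under mt-Co1 in the insoluble libraries, 51.9% to 60.9% in OE and 11.4% to 37% in RIP.

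**Figure D3:**
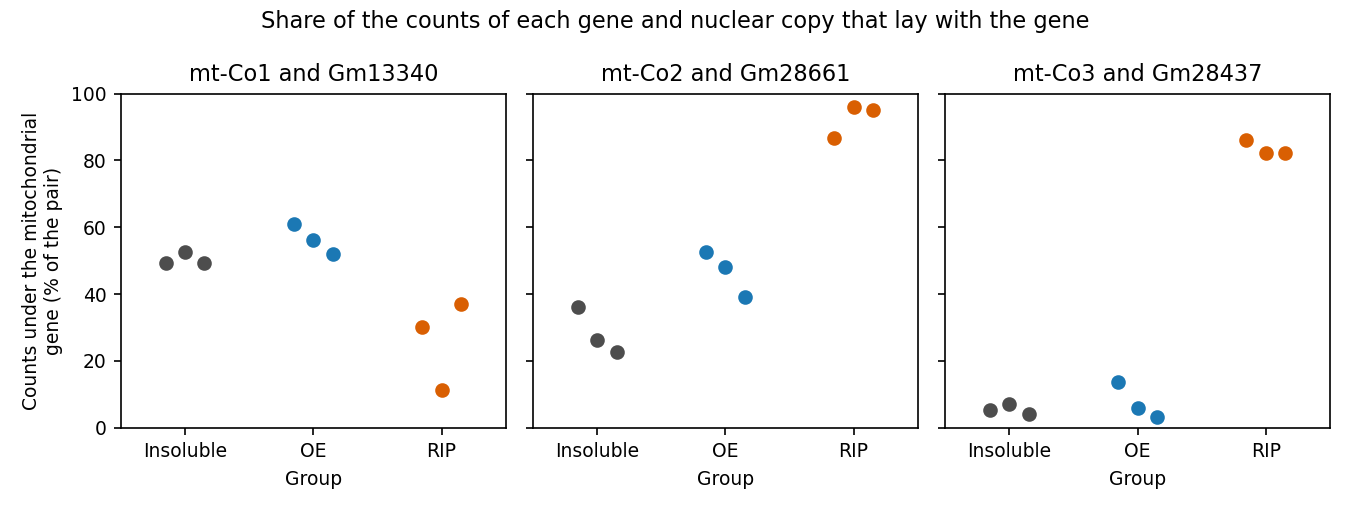
Percentage of the summed counts of a mitochondrial gene and its nuclear copy that lay with the mitochondrial gene; each point is a library. For mt-Co3 the RIP libraries sit at 82.1% to 86.1%, above all OE and insoluble libraries (at most 13.7%), and for mt-Co1 they sit below them.

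RIP was also compared with OE directly, over the 194 genes that both tables list. The 5 members were called in the same directions as against the insoluble fraction, 2 higher and 3 lower in RIP, beside 81.7% of the 191 genes tested (37.7% higher and 44% lower). Mt-Co3 again passed the filter through its RIP counts, so only a higher call was open to it. The RIP libraries are the same in both comparisons, so the second set of calls is not independent of the first. Mt-Cytb was 1097-fold lower in RIP than in OE (95% interval 428-fold to 4028-fold, counting error only). Mt-Co3 had a log2 fold change of 5.85 ± 0.32 (SE; edgeR adjusted p = 1.52e-06) and mt-Co2 one of 1.47 ± 0.24 (SE; edgeR adjusted p = 0.000695). With their copies, where again all 5 members were called beside 83.5% of 188 genes, these became 2.47 ± 0.10 and 0.51 ± 0.20 (SE; edgeR adjusted p = 2.72e-07 and 0.0465). Mt-Co1 and mt-Atp6 had log2 fold changes of -4.06 ± 0.38 and -1.68 ± 0.15 (SE; edgeR adjusted p = 3.05e-05 and 2.67e-05).

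The order of the members within a library does not depend on the library total. Levels per kilobase were therefore compared after scaling all 9 libraries together on the shared genes. In the insoluble fraction mt-Cytb was highest at 988 ± 49.0 normalised counts per kilobase, followed by mt-Atp6 at 545 ± 21.0 and mt-Co1 at 70.5 ± 4.74 (SD, n = 3 each). Mt-Co3 at 11.3 ± 3.33 and mt-Co2 at 10.6 ± 3.13 came last and did not differ beyond their spread. OE had the same first 3 genes, at 1057 ± 3.44, 566 ± 7.40 and 105 ± 22.1, and again a spread that overlapped between mt-Co2 (19.6 ± 6.10) and mt-Co3 (11.7 ± 8.36).

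In RIP the order was another one. Mt-Co3 was highest at 754 ± 9.95 normalised counts per kilobase, followed by mt-Atp6 at 186 ± 30.4 and mt-Co2 at 58.9 ± 7.87 (SD, n = 3 each). Mt-Co1 at 6.60 ± 4.34 and mt-Cytb at 1.03 ± 0.46 were lowest, and no library of one overlapped the other. These levels are of counts as deposited and carry the shared sequence described above, which makes the levels of mt-Co2, mt-Co3 and mt-Atp6 uncertain against that of mt-Cytb.

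As a share of the summed counts of the 5 genes, mt-Cytb made up 69.5% ± 0.679 in the insoluble libraries, 68.0% ± 1.93 in OE and 0.154% ± 0.0747 in RIP (SD, n = 3 each). Mt-Co3 made up 0.547% ± 0.179, 0.512% ± 0.355 and 76.9% ± 2.09 in the same groups. Mt-Atp6 made up 22.8% ± 0.065, 21.7% ± 0.272 and 16.4% ± 2.03. Mt-Co1 went from 6.71% ± 0.659 in the insoluble fraction to 9.07% ± 1.72 in OE and 1.32% ± 0.876 in RIP, and mt-Co2 from 0.445% ± 0.114 to 0.75% ± 0.216 and 5.23% ± 0.652.

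Of these shares, 15 differences between groups were tested by an exact permutation test over libraries, two-sided, where 3 libraries against 3 cannot give a p below 0.1 (0.125 after Benjamini-Hochberg adjustment over the 15). All 5 members reached that smallest p in RIP against insoluble and in RIP against OE, so their shares did not overlap between those groups. In OE against insoluble 2 members reached it, mt-Co2 and mt-Atp6. Mt-Co1, the only member alone that edgeR called there, did not (exact permutation p = 0.2). Its shares overlapped, with 7.10% in OE replicate 3 and 7.19% in insoluble replicate 2. As a share of all mitochondrially encoded mRNAs mt-Co1 also did not reach it (exact permutation p = 0.4). In these comparisons edgeR called 85.3%, 81.7% and 39.5% of all genes tested. Those are calls by another test, and the part of all genes without overlap between groups was not counted. The number of members without overlap therefore has no background and is not read as a result about the members. The shares sum to a fixed total, so a change in the share of one gene must be offset among the others. Mt-Atp6 depended on the denominator: as a share of all 11 mitochondrially encoded mRNAs in both tables its difference was -0.828 percentage points in RIP against insoluble (exact permutation p = 0.4) and 0.389 in RIP against OE (exact permutation p = 0.9), against -6.40 and -5.25 among the 5 genes.

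**Figure D4:**
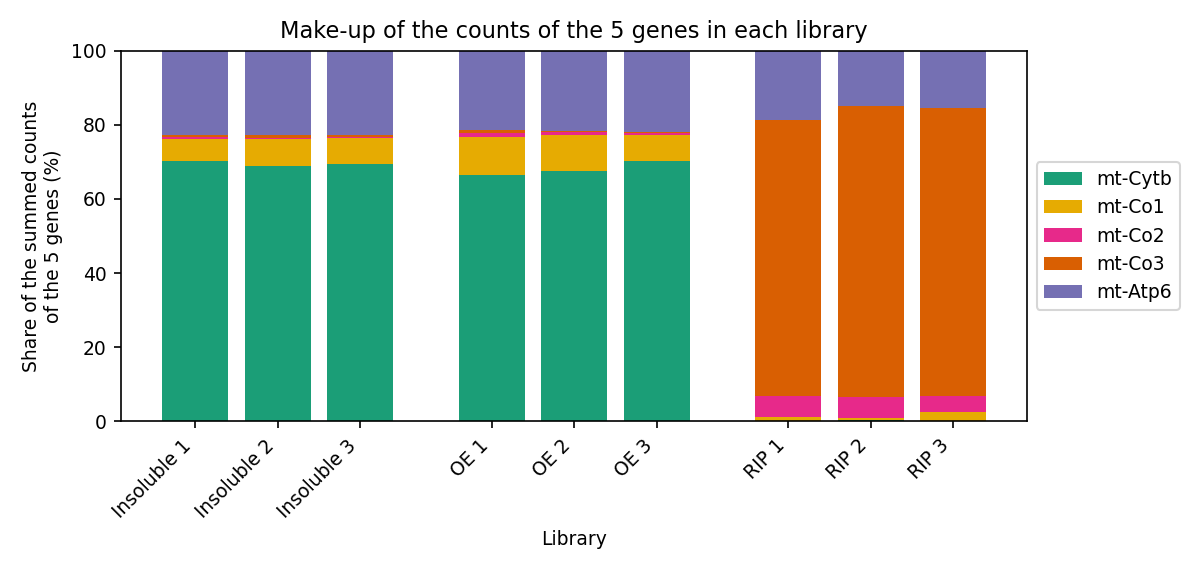
Stacked bars show, for each library, the percentage of the summed raw counts of the 5 genes that each gene holds. Mt-Cytb takes 66.4% to 70.2% of each insoluble and OE bar and mt-Co3 takes 74.5% to 78.5% of each RIP bar.

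The other listed mitochondrially encoded genes place the members in their chromosome. Of the 13 mitochondrially encoded mRNAs, 12 were in the OE table and 7 passed its filter. Of these 7, 3 were called higher and 1 lower, beside 39.5% of the 195 genes tested (21% higher and 18.5% lower). Their median log2 fold change was 0.12, against -0.01 over all genes tested. Beside mt-Co1 (0.58), mt-Nd2 (0.55) and mt-Nd1 (0.21) were called higher in OE, and mt-Nd5 (-0.19) was called lower. Of the 11 mRNAs listed for RIP, all were tested against the insoluble fraction, with 4 called higher and 6 lower. The background was 85.3% of 190 genes (40.5% higher and 44.7% lower), so the number called is near it. The median log2 fold change of these 11 mRNAs was -0.51, against 0.03 over all genes tested. Beside mt-Co2 and mt-Co3 the ones called higher in RIP were mt-Nd4l and mt-Nd4, subunits of complex I, with log2 fold changes of 3.64 and 2.60. Those called lower beside the members were mt-Nd2, mt-Nd3 and mt-Nd5, also of complex I. All 4 that were higher held at most 10 counts in any insoluble library and passed the filter through their RIP counts, so no other direction could have been called for them. From mt-Co1 to mt-Nd3 the listed genes alternated, being lower, higher (mt-Co2), lower (mt-Atp6), higher (mt-Co3) and lower, while other neighbours shared a direction, such as mt-Nd2 and mt-Co1 or mt-Nd4l and mt-Nd4.

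**Figure D5:**
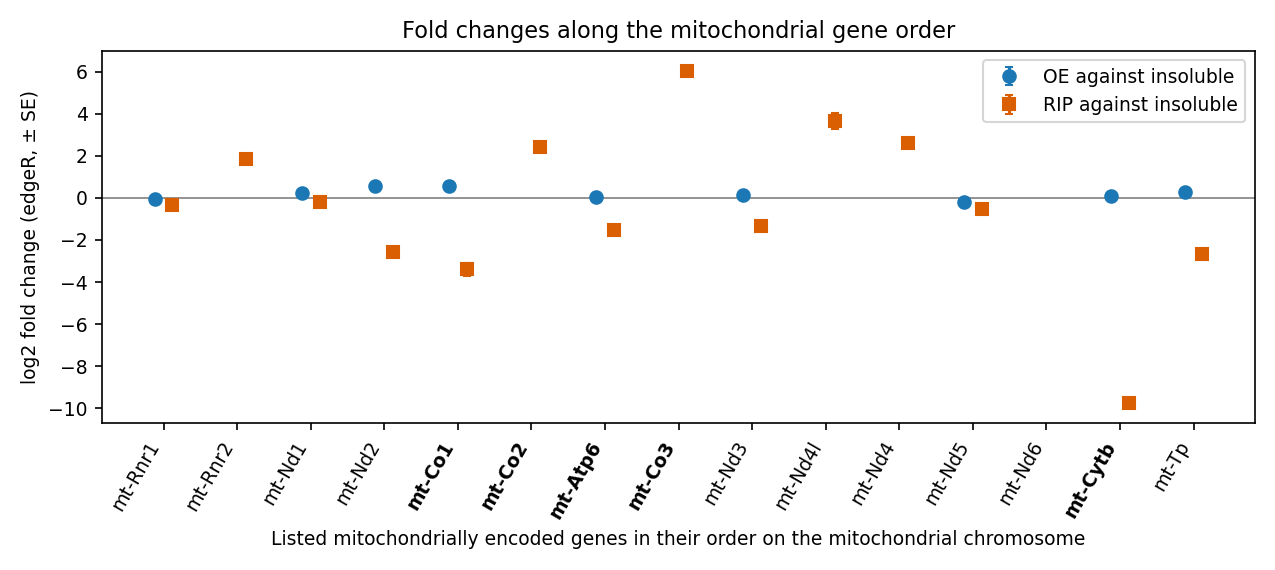
Log2 fold change (± SE, edgeR) of each listed mitochondrially encoded gene that passed the filter, in the order of the genes on the chromosome, with the 5 members in bold; circles are OE against insoluble and squares RIP against insoluble. The circles lie between -0.19 and 0.58, whereas the squares reach from -9.77 (mt-Cytb) to 6.03 (mt-Co3), and some neighbours differ in sign, as mt-Atp6 (-1.55) and mt-Co3 do.

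Nuclear genes also supply subunits of these complexes, but none of the 9 nuclear subunits of complex III, 15 of complex IV and 16 of complex V on the list used, nor any of 19 assembly factors and 23 genes of mitochondrial RNA synthesis and handling, was found in the tables as analysed here. The members were not compared with their nuclear partners.

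The genes most like each member were sought among the 194 shared genes by the root mean square difference of log2 normalised counts (prior count 2), each gene set to 0 at its insoluble mean, over the 9 libraries. Mt-Cytb was closest to Dnah6 (0.60 log2 units), Itpr3 (0.81) and Nbeal2 (1.77), against a median of 4.92 over the 193 other genes. Mt-Co1 was closest to Gm12191 (0.37), Sbsn (0.48) and mt-Nd2 (0.56), and mt-Co2 to mt-Nd4 (0.24), Atp10a (0.33) and Gm37827 (0.40). Mt-Co3 was closest to Foxl2 (0.47), Adamts16 (0.58) and Hspa12b (0.71). Mt-Atp6 was closest to Ets1 (0.13), AC171277.1 (0.14) and B230206H07Rik (0.18). The medians over the other genes were 2.06 for mt-Co1, 1.48 for mt-Co2, 3.38 for mt-Co3 and 1.06 for mt-Atp6. No member was among the 3 genes closest to another member, and 2 of these 15 places were held by other mitochondrially encoded genes. Of the 194 shared genes, 14 are mitochondrially encoded, the members included, so few such places would be held by them in any case.

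YTHDF2 binds m6A, whose common sequence contexts include GGAC. The letters GGAC were therefore counted in the transcript sequence of each gene, with none overlapping another. Mt-Co3 held 3, mt-Cytb and mt-Atp6 held 2 each, and mt-Co1 and mt-Co2 held 1 each. Per kilobase these were 3.83 for mt-Co3, 2.94 for mt-Atp6, 1.75 for mt-Cytb, 1.46 for mt-Co2 and 0.647 for mt-Co1, all below the median of 4.30 over the longest transcript of the 236 listed genes with a GENCODE match, of which 96.2% held at least 1. A match is a description of the letters and shows no methylation or binding.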

How the data were processed

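RNA-seq counts of 9 mPFC libraries were analysed. Raw counts per gene were used as deposited, named as such per the file headers, and the tables list selected genes by a criterion not given in the sources used here. The submitters' processing notes name mm10, Bowtie2 2.2.3, HISAT2 2.1.0 and HTSeq 0.6.0 with no role. The deposited tables also give a mean signal (not used), a fold change and a p-value, all named in the deposited headers. The fold change was read as a linear ratio and the p-value as unadjusted, which the headers do not state. Blank rows (724 of 961 in the OE table) were left out.

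Each comparison was fitted on its 6 libraries with edgeR 4.0.16 under R 4.3.3: filterByExpr (minimum count 10, minimum total 15), TMM, quasi-likelihood test, Benjamini-Hochberg adjustment over all genes that passed the filter, threshold 0.05, no replicate block. Log2 fold changes above 0 are higher in the group named first. Depth of whole libraries is unknown, and listed totals of 61610 to 99369 counts set the precision.

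Replicate pairs were compared by chi-square; the most alike, insoluble 2 and 3, still differed (p = 0.0457). Chi-square over degrees of freedom was 1.17 to 1.33 for insoluble, 1.54 to 2.59 for OE and 5.96 to 12.8 for RIP pairs. Same-numbered libraries did not deviate together (correlations -0.228 to 0.0924), so numbers were not taken as pairs. Named genes were the 5 members, the listed genes of fixed lists, each member's nuclear copies, and its 3 most similar genes. Of the fixed cell type lists, endothelial markers had 6 of 10 in the OE table (1 of 4 tested higher) and 4 of 10 in the RIP table (2 of 4 lower), and blood cell markers had only Ngp. Over all genes tested, 21% were called higher in OE and 44.7% lower in RIP against insoluble, so these endothelial counts are near the background. Members and lists were chosen with earlier results of these data known. Alternatives were DESeq2 1.42.0, other scalings, no filter, a replicate block, leaving out or summing libraries and, chosen after seeing the data, summing nuclear copies.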

Additional observations from a re-analysis of the deposited data

How the results depend on the processing

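Mt-Co2 (in RIP against insoluble) and mt-Co3 (in both RIP comparisons) passed the filter through their RIP counts. Counted alone, only a higher call was open to them in the filtered fits, so keeping it there is no support. With that limit, the 5 members kept direction and call in RIP against insoluble and in RIP against OE under all alternatives. These were DESeq2, upper-quartile scaling, scaling without mitochondrially encoded genes, no filter, the replicate block and each left-out library. They also included summed insoluble replicates 2 and 3 (against insoluble only) and summed nuclear copies. In OE against insoluble 1 member, mt-Co1, was called in each of these except with summed copies, chosen after seeing the data, where 2 were. The other was mt-Co3 (-0.43, reversed against an untested 0.05 alone), whose summed counts were mostly those of Gm28437. With 1 library left out, mt-Co3 alone ranged from -0.0584 (without insoluble replicate 3) to 0.444. The share difference of mt-Co3, -0.0351 percentage points, ranged from -0.228 (without OE replicate 1) to 0.122 (without OE replicate 3), and was 0.062 without insoluble replicate 2. The share of mt-Atp6 in RIP minus OE, -5.25 points, was 0.389 as a share of all mitochondrially encoded mRNAs. The cause of these moves was not tested.

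With the replicate block mt-Co1 in OE had a log2 fold change of 0.57 (adjusted p = 0.00803), and the block called 73, 160 and 151 genes against 77, 162 and 156 without it, changing no member's call. DESeq2 called 53, 158 and 155 genes. With upper-quartile scaling the median over all genes went from 0.03 to -0.32 in RIP against insoluble and from -0.10 to -0.32 in RIP against OE (log2), and RIP directions are relative to it. In OE the filter left mt-Co2 and mt-Co3 untested in some of these fits, and 6 and 5 of them gave a value.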
